A study of Mus musculus with 13 samples.

Results

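The ADAMTS proteases are described here by 10 genes, Adamts1, Adamts2, Adamts3, Adamts4, Adamts5, Adamts6, Adamts9, Adamts10, Adamts12 and Adamts15. These are 10 of the 19 Adamts genes, and of 55487 genes in all, that the deposited tables count, and each symbol was matched to its Ensembl identifier in both tables. The 10 were chosen with their levels by state and genotype already known, so their levels and their differences between states and genotypes are given as a description. Calls from the fits over all genes are printed as counts beside those of all genes, and nothing is read from them about the 10. The RNA came from mouse embryonic fibroblasts (MEFs), which are connective tissue cells grown out of embryos, before and after spontaneous immortalization by a modified 3T3 protocol. WT primary MEFs came from clones 3, 4 and 5, with an immortalized line from each clone. Prkd3-/- primary MEFs came from clones 13, 14 and 15, and Prkd3-/- immortalized lines were 13, 13a, 14 and 15. Line 13a had no primary library under its own number and was set beside primary clone 13. Cultures were grown in 10% fetal calf serum, and in 20% from senescence until colonies of immortalized cells grew out. For WT the clones came from different embryos, and each immortalized library stands for 1 line. Poly-A RNA was sequenced once per culture, which gave 3 WT primary, 3 WT immortalized, 3 Prkd3-/- primary and 4 Prkd3-/- immortalized libraries.

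ADAMTS proteins are secreted zinc metalloproteinases with thrombospondin repeats that bind them to cell surfaces and extracellular matrix. They are made as proenzymes, are activated mostly by furin-like convertases, and in part are held in check by the tissue inhibitor TIMP3 and by uptake through the receptor LRP1. Different members cut the large proteoglycans versican and aggrecan, remove the amino-terminal propeptides of fibrillar procollagens, or act on fibrillin microfibrils, and fibroblasts are a main source of several of them.

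The WT libraries held 55436367 to 90654323 counts and the Prkd3-/- libraries 35273408 to 100441756, so that 3 counts, taken as the lowest level that can be told from 0, correspond to between 0.0279 and 0.0848 CPM, a gene's counts relative to the library total. These floors cover counting error only. Library totals were scaled with TMM factors over the 13 libraries. The WT and Prkd3-/- libraries were deposited as separate tables, and genotype and table cannot be told apart. Prkd3 itself ranged from 69.7 to 93.6 CPM in WT and from 33.8 to 61.1 CPM in Prkd3-/- libraries, which were lower without overlap, although counts over a whole gene do not show which exons are missing. The 3 WT primary libraries were nearly alike, with a chi-square of their counts of 4.96 to 11.5 per degree of freedom, against 42.9 to 708 for pairs within the other groups. The summed level of 9 fibroblast markers was between 17900 and 67800 CPM, the lowest in Prkd3-/- line 13, and was carried by Col1a1, with at least 7506 CPM in every library, and Col1a2, with at least 4771. Not all 9 were high throughout, since Lum fell as low as 0.0491 CPM in a WT line and Dcn as low as 0.368 CPM in a Prkd3-/- line. Summed levels of 10 macrophage markers were 1380 to 1410 CPM in WT primary, 56.7 to 134 CPM in WT immortalized, 154 to 2050 CPM in Prkd3-/- primary and 13.1 to 333 CPM in Prkd3-/- immortalized libraries, and none of the 10 was at 0 in all libraries of a group. In WT, all 10 of them were lower in every line, and 7 passed the test. Other marker sums were also lower in every WT line than in every WT primary library, with 2.36 to 3.96 against 16.2 to 20.4 CPM for endothelial, 2.14 to 7.44 against 24 to 27.5 CPM for skeletal muscle, 0.262 to 0.659 against 2.51 to 2.9 CPM for epithelial, and 0.606 to 3.14 against 3.92 to 4.65 CPM for Schwann and neural crest markers. Chondrocyte and smooth muscle markers overlapped between the WT states. In bulk RNA, fewer cells of a type and less RNA per cell cannot be told apart.

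The levels of different genes were compared per length of exon, as CPM per kb. In WT primary MEFs, Adamts1 was the highest member with 129.3 ± 14.99 CPM per kb (SD, n = 3), followed by Adamts5 with 40.95 ± 1.54. Adamts12 with 11.3 ± 0.543 and Adamts2 with 10.7 ± 0.185 overlapped, as did Adamts6 with 2.35 ± 0.149 and Adamts3 with 2.12 ± 0.177. Between these pairs stood Adamts4 with 6.38 ± 0.01002, Adamts10 with 4.24 ± 0.309 and Adamts9 with 3.12 ± 0.265 CPM per kb, none overlapping with the next. Adamts15 was the lowest, with 0.427 ± 0.00718 CPM per kb. Adamts1 and Adamts5 together made up 79.6% to 82.6% of the summed CPM per kb of the 10 genes in these libraries, and between 64.1% and 85% over all 13.

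In the WT immortalized lines Adamts1 and Adamts5 remained the highest members, with 147.5 ± 84.7 and 35.4 ± 21.5 CPM per kb (SD, n = 3). Adamts2 followed with 25.2 ± 5.86 and overlapped with Adamts5. Adamts3 was the lowest member, with 0.0554 ± 0.00707 CPM per kb, next to Adamts15 with 0.104 ± 0.175, which overlapped with it. In Prkd3-/- MEFs the order also began with Adamts1 and Adamts5, at 67.2 ± 19.9 and 20.4 ± 4.90 CPM per kb in primary cultures (n = 3) and at 58.0 ± 42.1 and 20.6 ± 14.4 in the lines (n = 4). Among the 4 lines, all neighbours in the order overlapped except Adamts6 and Adamts3, in eighth and ninth place. The summed level of the 10 genes was 201 to 229 CPM per kb in WT primary, 125 to 356 in WT immortalized, 90.9 to 137 in Prkd3-/- primary and 18.96 to 179 in Prkd3-/- immortalized libraries. The lowest sum was that of Prkd3-/- line 13.

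**Figure D1:**
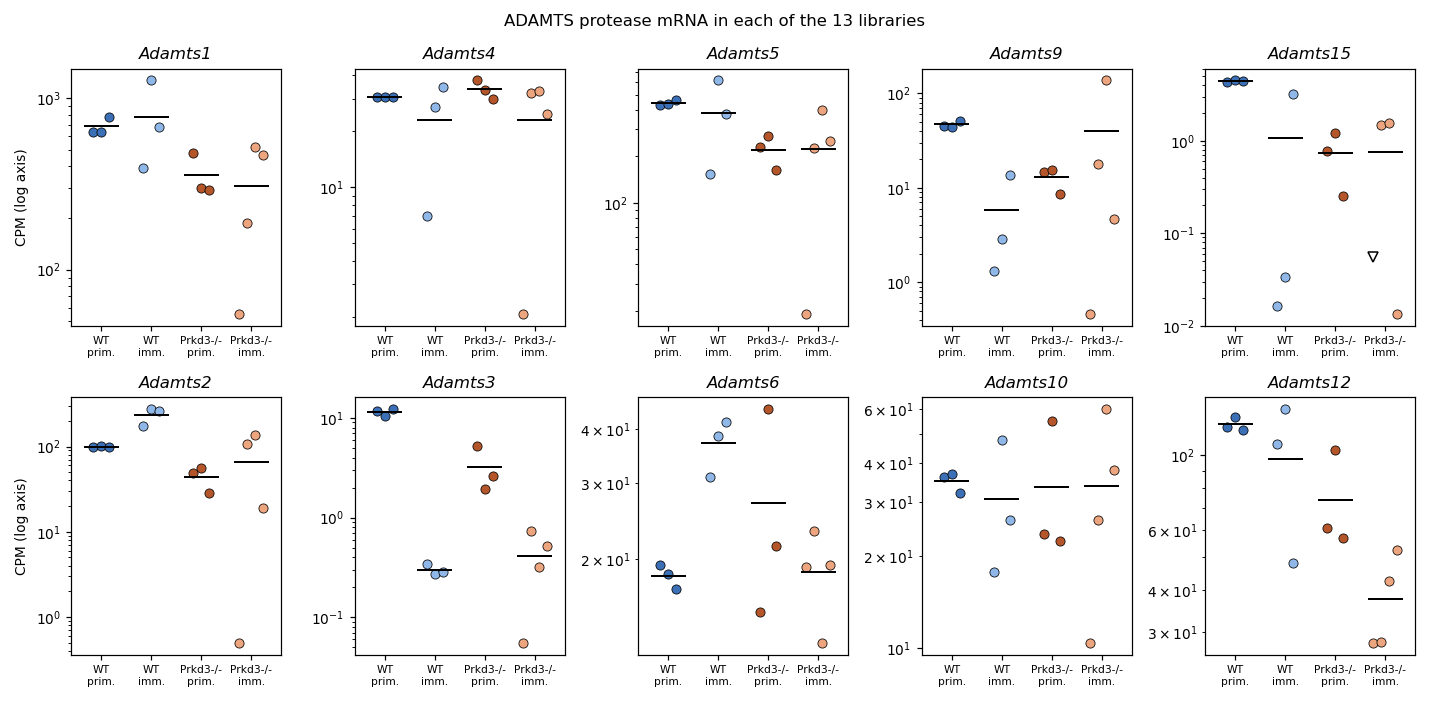
Level of each of the 10 genes in each library, in CPM on a log axis, with 1 point per library and a line at the mean of each group (prim., primary; imm., immortalized). The open triangle marks a library with 0 counts, drawn at the CPM of 3 counts. Adamts3 sits below 1 CPM in all 7 immortalized lines, and Prkd3-/- line 13 holds the lowest level of 9 of the 10 genes among the Prkd3-/- lines. For Adamts15 its 0 counts cannot be told from the 1 count of Prkd3-/- line 15.

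Adamts2 and Adamts3 encode procollagen N-proteinases, which trim the amino-terminal propeptides of fibrillar procollagens, and ADAMTS3 is also known for activating the lymphatic growth factor VEGF-C. In WT they moved in opposite directions. Adamts3 (ENSMUSG00000043635, chr5:89677087-89883334 in GRCm38, minus strand) was at 11.9, 10.4 and 12.2 CPM in WT primary clones 3, 4 and 5 and at 0.344, 0.271 and 0.288 CPM in the lines from them. The counts behind the lines' values were 21, 16 and 19, against 680 to 955 in the primary libraries. The groups did not overlap and the Log2FC was -5.25 (SE 0.17), 38.0-fold lower in the lines. In Prkd3-/- MEFs Adamts3 was at 5.24, 1.93 and 2.60 CPM in primary clones 13, 14 and 15 and at 0.0552, 0.737, 0.317 and 0.521 CPM in lines 13, 13a, 14 and 15. These groups did not overlap either, and the Log2FC was -2.98 (SE 0.78). The value in line 13 rests on 3 counts.

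Adamts2 (ENSMUSG00000036545, chr11:50602084-50807573, plus strand) was at 98.9, 101.7 and 98.6 CPM in WT primary clones 3, 4 and 5 and at 172.5, 274 and 259 CPM in their lines. The lines were higher without overlap, with a Log2FC of 1.24 (SE 0.20), which is 2.37-fold. In Prkd3-/- primary clones 13, 14 and 15 Adamts2 was at 48.8, 55.4 and 28.6 CPM, and in lines 13, 13a, 14 and 15 at 0.497, 107.7, 135.5 and 18.99 CPM. Lines 13a and 14 were above all primary libraries, lines 13 and 15 below them, and the Log2FC was 0.57 (SE 1.29). Without line 13 it was 0.98 and without line 14 it was -0.05, and the fit with the clone as a block, which leaves out line 13a, gave -1.27, so that the direction was not settled. The ratio of Adamts2 to Adamts3 CPM, which was 8.05 to 9.76 in WT primary cultures, was 502 to 1010 in the WT lines, and in Prkd3-/- it was 9.31 to 28.8 in primary cultures and 9 to 428 in the lines.

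The promoters of both genes are shown because the pair diverged in WT. Each run is the 300 bases around the RefSeq transcription start in GRCm38.p6, read 5′ to 3′ on the gene's strand, with matches to the GC box GGGCGG on either strand in capitals. Adamts2 lies at chr11:50601835-50602134 and Adamts3 at chr5:89883285-89883584.
Adamts2: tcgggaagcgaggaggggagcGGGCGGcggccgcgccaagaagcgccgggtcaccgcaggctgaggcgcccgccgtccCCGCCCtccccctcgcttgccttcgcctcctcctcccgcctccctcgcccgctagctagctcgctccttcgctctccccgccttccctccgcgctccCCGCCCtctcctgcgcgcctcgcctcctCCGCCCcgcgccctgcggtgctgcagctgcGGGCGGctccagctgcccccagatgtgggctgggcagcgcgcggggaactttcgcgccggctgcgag
Adamts3: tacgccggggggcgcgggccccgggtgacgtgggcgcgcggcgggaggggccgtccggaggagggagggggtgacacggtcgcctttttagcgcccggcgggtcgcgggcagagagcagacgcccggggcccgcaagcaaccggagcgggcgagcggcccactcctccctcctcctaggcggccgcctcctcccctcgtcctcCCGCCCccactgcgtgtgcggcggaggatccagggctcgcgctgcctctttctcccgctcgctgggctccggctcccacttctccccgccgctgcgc
Both promoters were alike in composition, with 77.3% G and C and 41 CpG each, more than 96.5% of the 32851 RefSeq promoters of this length, whose median is 7 CpG. The Adamts2 promoter held 5 GC boxes and the Adamts3 promoter 1, in a set in which 35.7% hold at least 1. Neither held the TATA box TATAAA, found in 13.6% of promoters, or the AP-1 site TGAGTCA, found in 5.2%, both searched on both strands. These matches describe the sequence only.

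Adamts1, Adamts4, Adamts5, Adamts9 and Adamts15 encode enzymes that cleave versican and aggrecan, the large proteoglycans that bind hyaluronan. Adamts1 (ENSMUSG00000022893, chr16:85793827-85803113, minus strand) and Adamts5 (ENSMUSG00000022894, chr16:85856173-85901828, minus strand) are neighbours, 53.1 kb apart with 1 gene between them. Adamts1 was at 639.8, 639.4 and 777 CPM in WT primary clones 3, 4 and 5 and at 394, 1274 and 678 CPM in their lines, a Log2FC of 0.20 (SE 0.43). The line values lay on both sides of the primary ones. In Prkd3-/- MEFs Adamts1 was at 478, 301 and 289.8 CPM in primary clones 13, 14 and 15 and at 55.1, 187, 523 and 465 CPM in lines 13, 13a, 14 and 15, with a Log2FC of -0.21 (SE 0.68).

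Adamts5, a main aggrecanase of cartilage, was at 429.6, 435 and 461 CPM in WT primary clones 3, 4 and 5 and at 154, 618 and 374 CPM in the lines, with a Log2FC of -0.20 (SE 0.48). As for Adamts1, line 3 was the lowest and line 4 the highest. Adamts5 levels in Prkd3-/- were 228, 269 and 164 CPM in primary clones 13, 14 and 15 and 19.1, 225, 395.5 and 250.4 CPM in lines 13, 13a, 14 and 15. Line 13 was again far below the others. Over the 13 libraries the ratio of Adamts1 to Adamts5 CPM spanned less than either level. It was 1.47 to 1.69 in WT primary, 1.81 to 2.56 in WT immortalized, 1.12 to 2.1 in Prkd3-/- primary and 0.832 to 2.88 in Prkd3-/- immortalized libraries.

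Adamts4 (ENSMUSG00000006403, chr1:171250421-171260637, plus strand), the other classical aggrecanase, was at 30.6, 30.7 and 30.7 CPM in WT primary clones 3, 4 and 5 and at 7.03, 27.0 and 34.8 CPM in the lines. Of the WT lines, line 3 was low and line 5 above all primary libraries, and the Log2FC was -0.41 (SE 0.55). In Prkd3-/- the Adamts4 level was 37.7, 33.5 and 29.8 CPM in primary clones 13, 14 and 15 and 2.08, 32.2, 32.99 and 24.9 CPM in lines 13, 13a, 14 and 15, so that line 13 stood apart here too.

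Adamts9 (ENSMUSG00000030022, chr6:92772699-92943492, minus strand), encodes a versican-cleaving enzyme with many roles in development. It was at 44.8, 44.5 and 51.6 CPM in WT primary clones 3, 4 and 5 and at 1.31, 2.86 and 13.5 CPM in the lines, lower without overlap, with a Log2FC of -2.98 (SE 0.88). Without line 5 the Log2FC was -4.49. In Prkd3-/- primary clones 13, 14 and 15 Adamts9 was at 14.9, 15.5 and 8.70 CPM, while lines 13, 13a, 14 and 15 had 0.460, 18.03, 137.8 and 4.66 CPM. The lines thus lay both far above and far below the primary cultures, and the Log2FC of 1.62 (SE 1.5) became -0.74 without line 14. Of its exon bases, 12% are shared with A730049H05Rik and Gm15737.

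Adamts15 (ENSMUSG00000033453, chr9:30899155-30922452, minus strand), the member of lowest level in primary cultures, was at 4.37, 4.51 and 4.39 CPM in WT primary clones 3, 4 and 5. In the lines it was at 0.0164, 0.0338 and 3.17 CPM, which rest on 1, 2 and 209 counts. Lines 3 and 4 were under the floor of 3 counts whereas line 5 was closer to the primary level, so the groups did not overlap but the Log2FC of -2.02 had an SE of 1.6. Lines 3 and 4 together held 3 counts, under the floor in each, and the primary mean was 177 times their pooled level, with an exact Poisson interval at 95% of 60.6 to 859 for the counting error of the lines. They were pooled without line 5 after its level was seen, so this ratio is a description. Among Prkd3-/- libraries Adamts15 was at 0.773, 1.21 and 0.254 CPM in primary clones 13, 14 and 15, and at 0, 1.48, 1.54 and 0.0134 CPM in lines 13, 13a, 14 and 15. Line 13 had 0 and line 15 had 1 count, both under the floor of 3 counts.

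The promoters of Adamts1 and Adamts9 are given for comparison, since Adamts1 overlapped between the WT states and Adamts9 was low in all 3 WT lines. They lie at chr16:85803064-85803363 and chr6:92943485-92943784 and are written as above, here with the TATA box TATAAA in capitals as well.
Adamts1: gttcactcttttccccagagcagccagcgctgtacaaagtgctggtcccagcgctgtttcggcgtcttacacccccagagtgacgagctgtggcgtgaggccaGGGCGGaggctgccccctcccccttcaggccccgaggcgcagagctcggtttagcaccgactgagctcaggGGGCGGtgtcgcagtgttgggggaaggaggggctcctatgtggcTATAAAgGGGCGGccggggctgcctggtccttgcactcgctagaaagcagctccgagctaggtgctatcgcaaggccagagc
Adamts9: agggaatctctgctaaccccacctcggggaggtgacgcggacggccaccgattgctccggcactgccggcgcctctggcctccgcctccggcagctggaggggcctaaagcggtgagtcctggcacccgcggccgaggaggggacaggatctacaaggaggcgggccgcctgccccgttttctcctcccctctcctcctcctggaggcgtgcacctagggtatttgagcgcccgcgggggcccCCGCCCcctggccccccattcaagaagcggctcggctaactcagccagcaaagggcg
Adamts1 held 3 GC boxes and 1 TATA box and had 18 CpG, and Adamts9 held 1 GC box, no TATA box and 25 CpG. Of the 10 genes, 5 matched the RefSeq promoter set, namely Adamts1, Adamts2, Adamts3, Adamts9 and Adamts12.

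Adamts6 and Adamts10 encode a pair of related proteases that act on fibrillin microfibrils and cell adhesion. Adamts6 (ENSMUSG00000046169, chr13:104287835-104496695, plus strand) was at 19.4, 18.5 and 17.1 CPM in WT primary clones 3, 4 and 5 and at 31.0, 38.5 and 41.5 CPM in their lines. All lines were above all primary cultures, with a Log2FC of 1.02 (SE 0.14). In Prkd3-/- it was at 15.1, 44.4 and 21.5 CPM in primary clones 13, 14 and 15 and at 19.2, 23.3, 12.8 and 19.4 CPM in lines 13, 13a, 14 and 15, where the groups overlapped and the Log2FC was -0.53 (SE 0.39). Adamts10 (ENSMUSG00000024299, chr17:33524204-33553782, plus strand) was at 36.1, 36.9 and 32.1 CPM in WT primary clones 3, 4 and 5 and at 17.8, 47.6 and 26.3 CPM in the lines, a Log2FC of -0.19 (SE 0.36). The Prkd3-/- values of Adamts10 were 23.6, 54.8 and 22.3 CPM in primary clones 13, 14 and 15 and 10.4, 26.2, 60.1 and 38.09 CPM in lines 13, 13a, 14 and 15, with a Log2FC of 0.01 (SE 0.59).

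Adamts12 (ENSMUSG00000047497, chr15:11064790-11349231, plus strand) encodes a protease that cleaves cartilage oligomeric matrix protein. It was at 121.5, 130.1 and 119 CPM in WT primary clones 3, 4 and 5 and at 107.7, 137 and 48.2 CPM in the lines, with a Log2FC of -0.34 (SE 0.36). Line 5 was furthest from the primary range, and line 4 above it. In Prkd3-/- MEFs Adamts12 was at 61.1, 104 and 56.9 CPM in primary clones 13, 14 and 15 and at 27.9, 28.2, 42.6 and 52.4 CPM in lines 13, 13a, 14 and 15. All 4 lines were below all 3 primary cultures, and the Log2FC was -0.96 (SE 0.32).

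All 10 genes passed the filter on low counts in the main fit of each comparison, though not in every alternative fit. In WT, 1 of the 10 genes, Adamts3, was called in edgeR's quasi-likelihood test (|Log2FC| no smaller than 1, adjusted p-value under 0.01), where 1.82% of 19836 genes were called, and 1.76% were called as lower. An unadjusted p-value under 0.05 was found for 4 of the 10 (19.7% of all genes), and 3 of the 10 were called with an adjusted p-value under 0.05 instead (4.38%). Since these contrasts were among the values that chose the genes, the count is given as a description. With the clone as a block the Log2FC of Adamts3 in WT was still -5.25, its adjusted p-value was 0.0184 in edgeR, and neither it nor any other gene was called. Of the 10, 3 were lower without overlap in WT (17.4% of all genes) and 2 were higher without overlap (13.5%). The median Log2FC of the 10 was -0.27, beside 0.04 over all genes tested. The macrophage, endothelial, skeletal muscle, epithelial, and Schwann and neural crest marker sums, lower in all WT lines, moved with the same contrast, and their part in these values was not tested. In Prkd3-/-, 0 of the 10 genes and 0% of 20298 genes were called by edgeR, although 2 of the 10 and 1331 genes (6.56%) had an unadjusted p-value under 0.05. DESeq2 called 4 of the 10 genes in WT (5.94% of 22922 genes) and 1 in Prkd3-/- (0.781% of 24343). In Prkd3-/-, 2 of the 10 genes were lower without overlap (5.62% of all genes), and their median Log2FC was -0.10 beside 0.07.

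**Figure D2:**
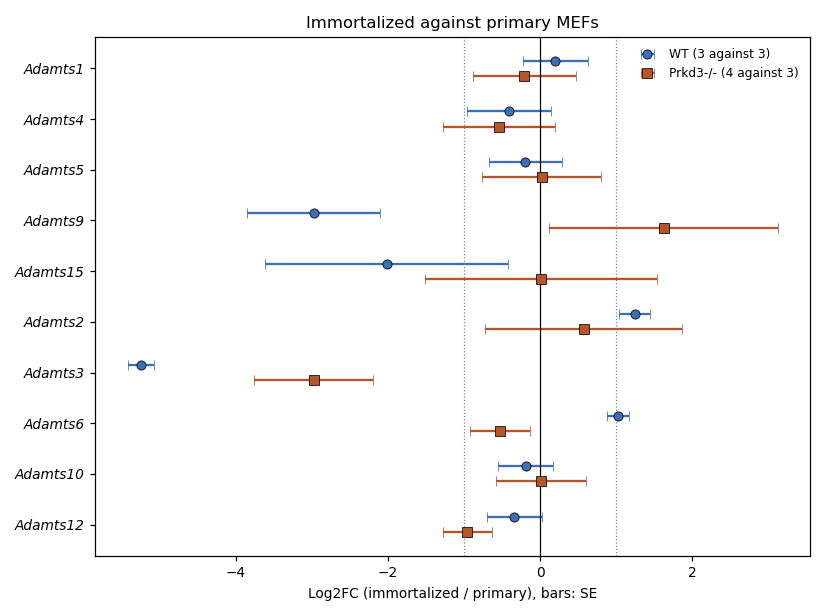
Log2FC of immortalized against primary MEFs for each of the 10 genes, with bars of 1 SE, in WT (circles) and Prkd3-/- (squares); dotted lines mark a Log2FC of 1 in either direction. Adamts3 is the only gene whose Log2FC is below -2 in both genotypes, and Adamts9 lies at -2.98 in WT and 1.62 in Prkd3-/-.

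A difference between WT and Prkd3-/- in the change with immortalization was tested by an interaction term fitted to the 13 libraries. With an adjusted p-value under 0.05 required, edgeR called 0 of the 10 genes and 0% of 21197 genes, and DESeq2 called 0 of the 10 and 0.123% of 30045 genes. The interaction estimate was 2.27 (SE 0.88) for Adamts3, 4.62 (SE 1.99) for Adamts9 and -1.55 (SE 0.46) for Adamts6. These 3 of the 10 genes and 839 of all genes (3.96%) had an unadjusted p-value under 0.05, and none was called. The changes in WT and Prkd3-/- were therefore not shown to differ for any of the 10.

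Each line was then set beside the primary library of its clone, as 1 library against 1 and without a test. Adamts3 was lower in all 7 lines, by log2 ratios from -2.29 in Prkd3-/- line 15 to -6.24 in Prkd3-/- line 13. The WT lines lay close together, at -5.05, -5.19 and -5.34 for lines 3, 4 and 5. None of the other 9 genes was at least 2-fold lower in every line. Prkd3-/- line 13 was at least 2-fold lower for 9 of the 10 genes, all but Adamts6, where 25.3% of all genes were. WT line 3 was lower by this measure for 6 of the 10 (17.8% of all genes), WT lines 4 and 5 for 3 each (16.1% and 13.7%), Prkd3-/- lines 13a and 14 for 3 each (9.2% and 16.5%), and Prkd3-/- line 15 for 2 (15.4%). These tallies include Adamts15 in WT lines 3 and 4 and in Prkd3-/- lines 13 and 15, where it was under the floor of 3 counts. At least 2-fold higher were Adamts2 and Adamts6 in WT lines 4 and 5 (4.78% and 7.9% of all genes), Adamts2 in line 13a (8.56%), and Adamts2 and Adamts9 in Prkd3-/- line 14 (13%). None of the 10 was in WT line 3 (5.3%) or in Prkd3-/- lines 13 (9.17%) and 15 (8.88%).

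The median log2 ratio of all tested genes of a chromosome was within 0.23 of 0 for the chromosomes of these genes in each line, with 2 exceptions, both in Prkd3-/- line 15. There the median was -0.58 for chromosome 16, where Adamts1 and Adamts5 had ratios of 0.68 and 0.61, and 0.52 for chromosome 6, where Adamts9 had a ratio of -0.90. In these 3 cases the gene and its chromosome moved in opposite directions. Prkd3-/- line 13 also had the lowest summed fibroblast markers of the 4 lines, 17900 against 24200 to 30900 CPM. It was the lowest too for chondrocyte (114 against 419 to 2180), endothelial (6.73 against 15.5 to 25.1) and skeletal muscle markers (0.46 against 1.35 to 1.69). The same held for Schwann and neural crest markers (0.589 against 0.86 to 13). For macrophage, smooth muscle and epithelial markers another line was lower. The part of these differences in the low levels of line 13 was not tested.

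**Figure D3:**
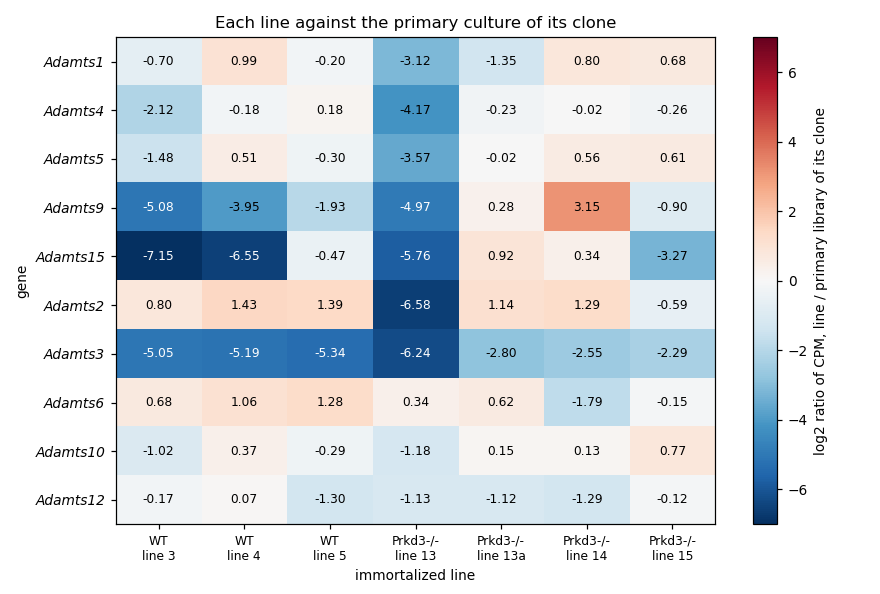
Log2 ratio of CPM of each immortalized line to the primary library of its clone (line 13a to clone 13), for the 10 genes in rows and the 7 lines in columns; blue is lower and red higher in the line. The row of Adamts3 is blue throughout, from -2.29 to -6.24, and the column of Prkd3-/- line 13 is blue for every gene but Adamts6.

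The genotypes were compared within each state. These comparisons use the same libraries as those between states, so they are no separate support for them, and as the 10 genes were chosen with these levels known, their values are again a description. In primary MEFs, 7 of the 10 genes were lower in Prkd3-/- than in WT without overlap, namely Adamts1, Adamts2, Adamts3, Adamts5, Adamts9, Adamts12 and Adamts15, where 18.8% of all genes were. None was higher without overlap (15.5% of all genes). By the thresholds used between states, edgeR called 0 of the 10 genes and 0.765% of 20403 genes, while 7 of the 10 and 4921 genes (24.1%) had an unadjusted p-value under 0.05 and DESeq2 called 4 of the 10 (3.71% of 22563 genes). At an adjusted p-value under 0.05, a threshold chosen after seeing the data, edgeR called 4 of the 10 as lower, where 2.01% of all genes were.

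The 4 were Adamts9 with a Log2FC of -1.83 (SE 0.22), Adamts15 with -2.49 (SE 0.47), Adamts2 with -1.15 (SE 0.23) and Adamts3 with -1.80 (SE 0.37). Adamts5 had a Log2FC of -0.99 (SE 0.18), just short of the fold threshold, Adamts1 one of -0.93 (SE 0.21) and Adamts12 one of -0.72 (SE 0.24). Adamts4, Adamts6 and Adamts10 overlapped between genotypes, with Log2FC values of 0.15, 0.58 and -0.04, so that 8 of the 10 values were negative (48.7% of all genes). The median over the 10 genes was -0.96, beside 0.01 over all genes tested. Without Prkd3-/- primary clone 14, whose macrophage markers summed to 2050 CPM against 154 and 377 in the other clones, edgeR called 5 of the 10 at the threshold of 0.01, namely Adamts3, Adamts5, Adamts9, Adamts12 and Adamts15, and 1456 genes in all. Clone 14 also had 29.6 CPM of skeletal muscle markers against 4.96 and 6.3 in clones 13 and 15, and 8600 CPM of smooth muscle and pericyte markers against 4700 and 5580. Some marker sums did not overlap between WT and Prkd3-/- primary libraries. Lower in Prkd3-/- were those of fibroblasts, with 39600 to 40500 against 23900 to 34100 CPM, and chondrocytes, with 200 to 259 against 117 to 162. Schwann and neural crest markers were also lower, with 3.92 to 4.65 against 0.961 to 3.67 CPM. Higher were those of endothelial cells, with 16.2 to 20.4 against 20.8 to 34.8, and smooth muscle and pericytes, with 4350 to 4450 against 4700 to 8600. The part of these markers in the result was not tested.

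In the immortalized lines, edgeR called 0 of the 10 genes between genotypes, where 0.0406% of 19683 genes were called. Only Adamts2 and Adamts6 did not overlap, both lower in Prkd3-/- (4.48% of all genes), with Log2FC values of -1.84 (SE 1.28) and -0.97 (SE 0.25). Of the 10 genes, Adamts6 and Adamts12 had unadjusted p-values under 0.05, as did 1355 genes in all (6.88%), and DESeq2 called 0 of the 10 (0.744% of 23939 genes). The Log2FC of Adamts12 was -1.35 (SE 0.39).

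**Figure D4:**
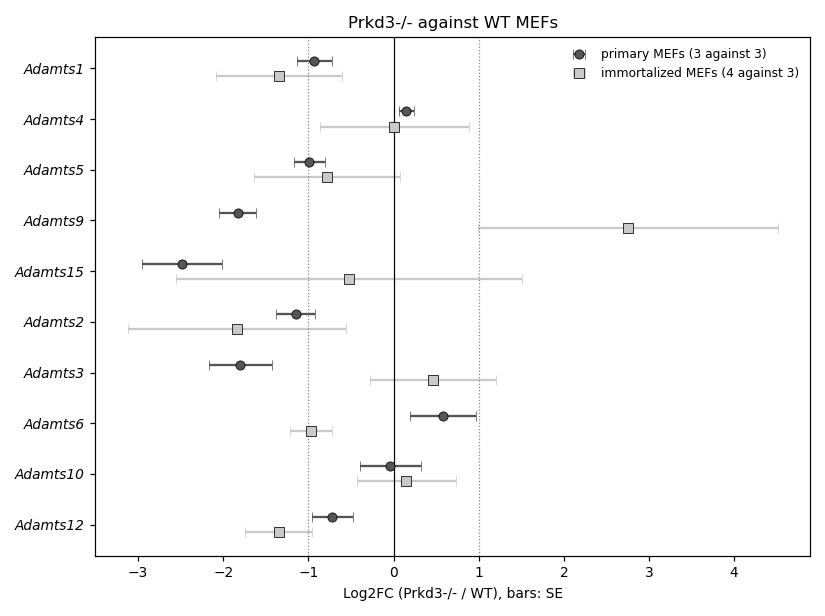
Log2FC of Prkd3-/- against WT for each of the 10 genes, with bars of 1 SE, in primary (circles) and immortalized MEFs (squares); dotted lines mark a Log2FC of 1 in either direction. In primary MEFs 8 of the 10 genes lie below 0, with short bars, and in immortalized MEFs the bars of Adamts2, Adamts9 and Adamts15 span more than 1 on either side.

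The other 9 Adamts genes complete the family. Adamts14, another procollagen N-proteinase, was at 28.6 ± 1.54 CPM (SD, n = 3) in WT primary, 21.2 ± 11.2 in WT immortalized, 24.2 ± 14.9 in Prkd3-/- primary and 35.1 ± 29.0 CPM in Prkd3-/- immortalized libraries (n = 4). Adamts7, a relative of Adamts12 that also cuts cartilage oligomeric matrix protein, was at 29.0 ± 1.17, 32.6 ± 7.86, 19.7 ± 3.34 and 29.8 ± 11.8 CPM in the same groups. Both had higher group means than Adamts3 and Adamts15 in every group, so the 10 were not simply the highest members of the family. Adamts17, a relative of Adamts10, was at 3.11 ± 0.525 CPM in WT primary MEFs and between 0.0983 and 2.18 CPM in their lines.

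Adamts8, Adamts13, Adamts16, Adamts18, Adamts19 and Adamts20 did not exceed 3.20 CPM in any library. Adamts8, which lies 20.1 kb from Adamts15 in a divergent orientation, had 19, 37 and 30 counts in WT primary clones 3, 4 and 5 and 0 in each of their lines, at least 8.51-fold lower against the floor of 3 counts per library. Adamts19 also had 0 counts in each WT line, at least 3.4-fold lower. Adamts16 was at 0.447 ± 0.0702 CPM in WT primary and 0.0813 ± 0.0204 CPM in WT immortalized libraries, and Adamts20 at 1.00 ± 0.503 and 0.181 ± 0.190 CPM. Adamts13, the protease of von Willebrand factor made mainly in liver, had at most 3 counts in any library, and the highest level of Adamts18 was the 3.20 CPM of Prkd3-/- line 13. Of the 9 genes, 7 passed the filter in WT and 0 were called there by edgeR (1.82% of all genes), with an unadjusted p-value under 0.05 for 2 (19.7%). DESeq2, run without this filter, called 3 of the 9 as lower, Adamts8, Adamts16 and Adamts19 (5.94% of all genes called). All 3 had few counts, and Adamts19 had not passed the filter. In Prkd3-/-, 6 passed, and neither tool called any (unadjusted p-value under 0.05 for 1, and for 6.56% of all genes).

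Genes of the same pathways were counted in 5 lists. Among 13 proteoglycan substrates and hyaluronan partners, 12 were tested in WT and 1 was called, Hapln1, a link protein that joins proteoglycans to hyaluronan. Hapln1 fell from 4.91 ± 1.54 to 0.0758 ± 0.0594 CPM (SD, n = 3 each), with a Log2FC of -5.99 (SE 0.67, adjusted p = 0.00781 in edgeR). Vcan, the gene of versican, was at 289.5 ± 19.9 and 699.8 ± 420.5 CPM and did not pass the test (Log2FC 1.28, SE 0.54, adjusted p = 0.267). Among 12 microfibril genes, 1 of 12 tested was called in WT, Mfap2, a fibrillin-binding microfibril protein, which fell from 92.9 ± 5.35 to 33.9 ± 4.66 CPM (Log2FC -1.45, SE 0.11, adjusted p = 0.00271 in edgeR). The fibrillin gene Fbn1, with a Log2FC of -0.01 (SE 0.33), did not pass. DESeq2 called 3 genes of the proteoglycan list and 2 of the microfibril list. Of the 6 fits that left out a WT library, Hapln1 was called in 1, that without line 3, and Mfap2 in 3, those without a line. Without any 1 of the 3 primary libraries neither was called, and their adjusted p-values over the 6 fits reached 0.0528 and 0.0269 in edgeR. Of all genes, 48, 50 and 66 were called without primary clones 3, 4 and 5, respectively. In the joint edgeR fit of all 13 libraries neither was called, with adjusted p-values of 0.0666 and 0.544, and 0 of all genes were. Without line 3, Vcan was called with a Log2FC of 1.71 (adjusted p = 0.00373 in edgeR).

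In the list of 12 inhibitors, activating convertases and clearance receptors, 0 of 12 were called in WT by edgeR (unadjusted p-value under 0.05 for 3, DESeq2 2). Timp3 was at 645.7 ± 16.0 CPM in WT primary and 887 ± 258 CPM in WT immortalized libraries, with a Log2FC of 0.46 (SE 0.23, adjusted p = 0.346). In the list of 10 fibrillar procollagens and their other processing enzymes, 0 were called in WT (unadjusted p-value under 0.05 for 1, DESeq2 0), and Col1a1, the gene of an α chain of type I procollagen, had a Log2FC of 0.57 (SE 0.42, adjusted p = 0.514). Of 7 ADAMTS-like genes, whose products lack the protease domain, 0 were called in WT (unadjusted p-value under 0.05 for 3, DESeq2 2), and all 7 had a negative Log2FC, as did 45.8% of all genes. Beside these counts stand 1.82% of all genes called by edgeR, 5.94% called by DESeq2 and 19.7% with an unadjusted p-value under 0.05. The median Log2FC in WT was -0.65 for the ADAMTS-like genes, 0.16 for the proteoglycan list, -0.05 for the microfibril list, 0.10 for the inhibitors and 0.22 for the procollagens, beside 0.04 for all genes.

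In Prkd3-/-, where 5 of the 7 ADAMTS-like genes were tested, edgeR called 0 genes of these 5 lists and 0% of all genes. The list medians lay between -0.36, for the microfibril genes, and 0.11, beside 0.07. Unadjusted p-values under 0.05 were found for 1 gene in each list except the ADAMTS-like one, which had 0 (6.56% of all genes). DESeq2 called 1 gene, in the list of inhibitors (0.781% of all genes). The Log2FC was 0.84 (SE 0.94) for Timp3, 0.22 (SE 0.57) for Vcan, -0.19 (SE 0.32) for Col1a1 and -1.45 (SE 0.46) for Fbn1. Between genotypes in primary MEFs, 4 genes of the lists were called by edgeR, where 0.765% of all genes were. They were 2 of 7 ADAMTS-like genes tested, 1 of 12 in the proteoglycan list and 1 of 12 in the microfibril list. Of 12 tested in the inhibitor list and 10 in the procollagen list, 0 were called. In these lists in turn, 5, 7, 6, 5 and 7 genes had an unadjusted p-value under 0.05 in edgeR (24.1% of all genes). DESeq2 called 4, 2, 2, 2 and 1 as lower and 0, 2, 0, 1 and 1 as higher (3.71% of all genes called). The 4 genes are named after their values were seen. Thsd4, an ADAMTS-like protein that promotes fibrillin-1 assembly, was lower in Prkd3-/- with a Log2FC of -2.70 (SE 0.19, adjusted p = 0.0016), and Adamtsl5 with -1.07 (SE 0.10, adjusted p = 0.00584). Eln, the gene of elastin, was lower with -4.54 (SE 0.34, adjusted p = 0.00267 in edgeR), and Has2, a hyaluronan synthase, was higher with 1.88 (SE 0.21, adjusted p = 0.00948). Without any 1 of the 3 WT primary libraries none of the 4 was called. Of all genes, 2, 2 and 27 were called without WT primary clones 3, 4 and 5, respectively. Over the 6 fits that left out a library, Thsd4 was called in 2, Adamtsl5 in 0, Eln in 3 and Has2 in 2, with adjusted p-values of up to 0.0183, 0.0557, 0.0227 and 0.0727 in edgeR and the same direction in each fit. In the joint edgeR fit of all 13 libraries none of the 4 was called, where 36 of all genes were. Their adjusted p-values in that edgeR fit were 0.79 for Thsd4, 0.297 for Adamtsl5, 0.96 for Eln and 0.851 for Has2.

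**Figure D5:**
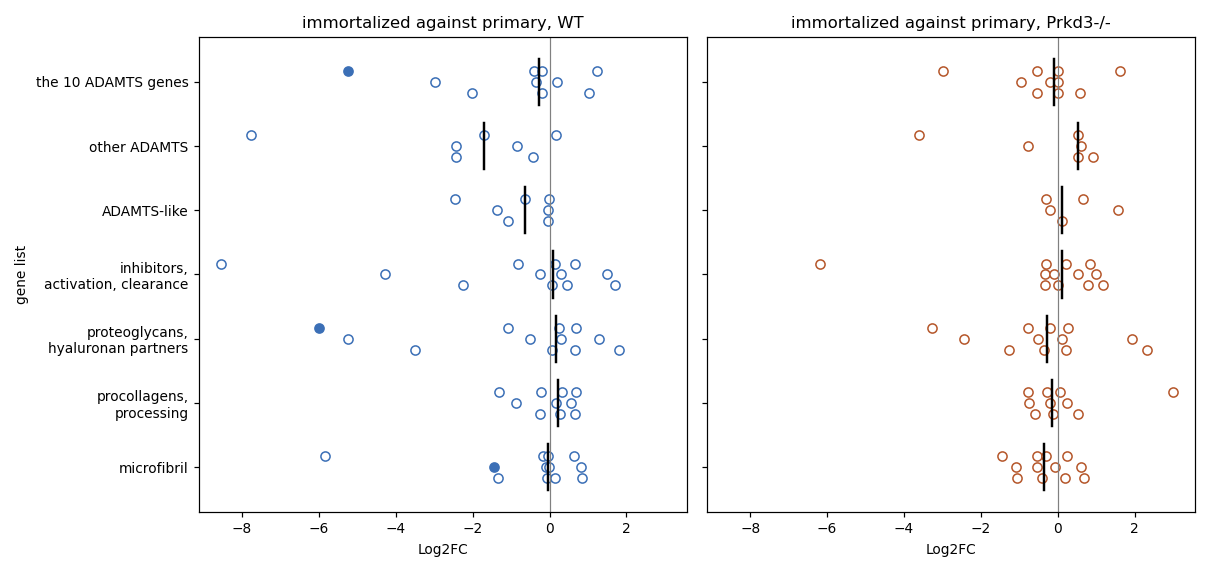
Log2FC of immortalized against primary MEFs for the tested genes of each list in WT (left) and Prkd3-/- (right), with 1 circle per gene, filled where the gene was called, and a black line at the median of the list. In WT the called genes are Adamts3, Hapln1 and Mfap2, all to the left of 0, and in Prkd3-/- no circle is filled; Adamts8, at 0 in the WT lines, is drawn at its fitted value of -7.77, which is no bound.

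Over the 13 libraries the span of log2 CPM was widest for Adamts2 with 9.07, Adamts15 with 8.28 and Adamts9 with 8.18, and narrowest for Adamts6 with 1.79. The genes most like these 3 were taken by the Pearson correlation of log2 CPM over the 13 libraries, which share groups and clones, so the values are a description. Adamts2 was most like Serpinf1 (r = 0.983), Fam129a (r = 0.959) and Trnp1 (r = 0.959), and Adamts15 most like Srpx (r = 0.979), Gbp7 (r = 0.968) and Gm43302 (r = 0.957). Adamts9 was most like Gm15737 (r = 0.984), Tril (r = 0.979) and A730049H05Rik (r = 0.974), of which the first and the last share exon bases with it, where a WT read pair was counted for each gene.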

How the data were processed

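RNA-seq of 13 MEF libraries was analysed from gene counts that the authors deposited as raw, unnormalized counts in 2 tables, 1 per genotype. For the WT libraries the authors mapped read pairs to mm10 with STAR 2.7.10a, used Samtools 1.18, and counted uniquely mapped pairs on Ensembl GRCm38 genes with featureCounts of Subread 2.0.6, without strand and for every gene a pair overlapped. The submitters' processing notes name the same tools for the Prkd3-/- table, whose counting options are not given in the sources used here. In the WT table, pairs in exons shared by genes are therefore counted more than once.

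From these counts, CPM were scaled with TMM factors over 13 libraries. Each comparison was fitted on its own 2 groups with edgeR 4.0.16 in R 4.3.3 (quasi-likelihood test, robust, TMM, filterByExpr), adjusted over all genes tested (Benjamini-Hochberg). The thresholds of the study were used for calls (adjusted p-value under 0.01, |Log2FC| no smaller than 1), and an adjusted p-value under 0.05 for the interaction. The SE is the Log2FC divided by the square root of F. Libraries are separate cultures, and p-values measure the spread between libraries of a group. Lines 13 and 13a, both set beside primary clone 13, entered the fits as separate libraries. The WT primary libraries had a chi-square of 4.96 to 11.5 per degree of freedom, against 42.9 to 708 in the other groups. Fits with them therefore rest in part on that small spread. Log2 ratios per line and correlations used a prior count of 1.

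The clone number ties a line to the primary culture of the same clone. Deviations from group means of same-numbered libraries had correlations of -0.04 to 0.02 in WT and 0.04 to 0.14 in Prkd3-/-. The highest correlation of a line with a library of another number was 0.01 to 0.06 in WT and 0 to 0.34 in Prkd3-/-. It exceeded the same-numbered value in WT lines 3 and 5 and in Prkd3-/- lines 13 and 14. The clone as a block, DESeq2 1.42.0, limma 3.58.1, other scalings, filters and thresholds, a joint fit of 13 libraries, lines 13 and 13a summed, and each library left out were alternatives. The members and gene lists were chosen with earlier results of these data known. Named are the members, all other Adamts genes, list genes called between states (at most 4 per list) with Timp3, Vcan, Col1a1 and Fbn1, and the 3 genes most like each of the 3 members of widest range. Thsd4, Adamtsl5, Eln and Has2, called between genotypes, and the markers Col1a2, Lum and Dcn fall outside this rule and were named after their values were seen. Promoter sequences are from RefSeq (GRCm38.p6).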

Additional observations from a re-analysis of the deposited data

Results flagged for a closer look

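Adamts9 in Prkd3-/- immortalized line 14 was at 137.8 CPM, far from the other 3 lines of its group. Its gap to the nearest line, in CPM without a log, was 0.872 of the range of the group, above Dixon's 95% critical value for 4 samples. This share was not computed on log2 CPM, where the spacing of the lines differs. The 10 genes were checked in this group alone, which is the only group of 4 libraries. For normally distributed values, chance gives about 1 such value in 20 for each gene checked. As the 10 genes were chosen with these levels known, the flag is a description and no test of this line. The counts behind the value were 8696 in the line and 1667 in the primary library of its clone, and the median log2 ratio of chromosome 6 in this line was 0.12. This line also had the highest sums of all 13 libraries for chondrocyte markers, 2180 CPM against at most 897, and for Schwann and neural crest markers, 13 CPM against at most 4.65. The part of these markers in the high level was not tested.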

How the results depend on the processing

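Numbers in brackets here are of all genes called. In WT, the number of the 10 genes called, 1 as reported (361), was 4 with DESeq2 (1361), 2 without a filter on low counts (483) and 2 with limma and a weight per group (198). It was 3 at an adjusted p-value under 0.05 (868) and 0 with all 13 libraries in a joint fit (0). With the clone as a replicate block it was 0 (0), and the adjusted p-value of Adamts3 in edgeR was 0.0184. Leaving out each library in turn gave 1 to 3 members, with 3 without WT line 3 or WT line 5, and 48 to 743 of all genes. The block called 0 genes in all in WT, and the cause was not tested. It changed no other call among the 10 genes. In Prkd3-/- the count of 0 became 1 with DESeq2 and stayed 0 when each library was left out. Between genotypes in primary MEFs, the count of 0 became 4 with DESeq2 (836), 1 without a filter (335), and 4 at an adjusted p-value under 0.05 (607), a threshold added after seeing the data. With each library left out the count was 0 to 5, with 5 without Prkd3-/- primary clone 14 (1456), 1 without clone 13 (179) and 1 without clone 15 (75). Between genotypes in the lines and for the interaction it was 0 under every alternative run. All genes called in primary MEFs between genotypes were 156, and 2 to 1456 with each library left out. DESeq2 called 1361, 190, 836, 178 and 37 genes in WT, Prkd3-/-, primary, lines and interaction, against 361, 0, 156, 8 and 0 in edgeR.

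Between genotypes and for the interaction, no value of the 10 genes was called, and those that changed sign are given as the range with each library left out. In primary MEFs, Adamts10 ranged from -0.6 to 0.17 and Adamts6 from 0 to 0.87. In the lines, Adamts4 ranged from -0.43 to 0.44 (and was -0.02 with DESeq2), Adamts10 from -0.27 to 0.61 and Adamts15 from -1.09 to 4.82. Adamts15 passed the filter in only 5 of these 7 fits. For the interaction, Adamts5 ranged from -0.2 to 0.75 (and was -0.16 with limma and -0.16 with the replicate block), Adamts10 from -0.22 to 0.75, Adamts1 from -0.77 to 0.14 and Adamts4 from -0.58 to 0.3. Between states, uncalled values changed sign too. With a library left out these were Adamts1, Adamts4, Adamts5 and Adamts10 in WT, and Adamts1, Adamts2, Adamts5, Adamts6, Adamts9, Adamts10 and Adamts15 in Prkd3-/-, where the replicate block, which leaves out line 13a, gave -0.87 for Adamts9, -1.27 for Adamts2 and -2.84 for Adamts15. Adamts3 in WT stayed called in each of the 6 fits that left out a library, with a Log2FC from -5.34 to -5.18. Among the list genes named between states, Fbn1 in WT ranged from -0.36 to 0.26 with each library left out, and in Prkd3-/- Col1a1 ranged from -0.35 to 0 and Vcan from -0.03 to 0.55. With limma, Timp3 was -0.06 and Vcan -0.05 in Prkd3-/-, and with the replicate block -0.31 and -0.21. With each library left out, the WT count was 0 to 3 for the proteoglycan list, 0 to 2 for the microfibril list and 0 to 1 for the inhibitors, beside 48 to 743 of all genes. Between genotypes in primary MEFs it was 0 to 4, 0 to 3 and 0 to 3, with 0 to 3 for the ADAMTS-like genes, beside 2 to 1456 of all genes. What size of change these groups could show was not measured here. Levels under 3 counts cannot be told from 0, and where ratios of Adamts15 use them they are a description only.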
